A study of Mus musculus with 12 samples.

Results

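Class I odorant receptors are the receptor group that mammals share with fish. The 114 class I genes described here were taken by symbol, as Olfr543 to Olfr692 without Olfr618, plus Olfr33 and Olfr64 to Olfr69. They were drawn from the 1015 odorant receptor genes among 19938 genes measured on the arrays. Their gene identifiers all matched the RefSeq gene table, which places all 114 on mouse chromosome 7. The other 901 odorant receptor genes serve as the comparison.

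The cells came from S100a5-tauGFP mice, in which a green fluorescent protein (GFP) is tied to S100a5, a gene that olfactory sensory neurons transcribe more when they are active. The study carried 18 such mice of both sexes, 7 to 12 weeks old, through 40 h in clean air chambers, and from 26 h on gave them pulses of a 5% citrus accord (odor mice) or filtered air alone (vehicle mice). Cells of the dissociated olfactory mucosa were then separated by fluorescence, so that 6 pools of 3 mice each gave an array of GFP-positive and an array of GFP-negative cells. The 4 groups of 3 arrays are GFP-positive and GFP-negative cells of odor mice (replicates 2, 3 and 4) and GFP-positive and GFP-negative cells of vehicle mice (replicates 1, 2 and 4). All groups carry the reporter, so none shows receptor expression without it, and a pool does not show the spread between single mice.

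An olfactory sensory neuron generally expresses 1 odorant receptor gene from 1 allele, and the receptor signals through the G protein Gnal, the cyclase Adcy3 and a cyclic nucleotide-gated channel. In the mouse the class I genes form a single large cluster, within which the beta-globin genes lie, whereas class II genes are spread over many chromosomes. Most class I receptors are expressed in the dorsal zone of the epithelium, and many respond to hydrophilic odorants such as aliphatic carboxylic acids. In sorted tissue the array signal of a receptor gene reflects both how many neurons chose it and how much RNA each contains, and these cannot be told apart here.

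Sequence upstream of the members is shown because members that lie near each other in the cluster, Olfr69 and Olfr629, had lower values in GFP-positive cells in both treatments, while Olfr654 and Olfr613 were among the members with the largest excess there. The windows run from 250 bases before to 50 bases after the gene start in RefSeq (build GRCm38.p6), 5′ to 3′ on the gene's strand. Of the 98 members with a window, 71 have a start at an ATG, where the gene model begins at the coding start and the window is not a promoter. The 4 shown are the lowest and highest pairs among members called in both treatments whose start is elsewhere. Capitals mark matches, on either strand, to TAATNA, the core that homeodomain proteins such as Lhx2 and Emx2 bind.
Olfr69: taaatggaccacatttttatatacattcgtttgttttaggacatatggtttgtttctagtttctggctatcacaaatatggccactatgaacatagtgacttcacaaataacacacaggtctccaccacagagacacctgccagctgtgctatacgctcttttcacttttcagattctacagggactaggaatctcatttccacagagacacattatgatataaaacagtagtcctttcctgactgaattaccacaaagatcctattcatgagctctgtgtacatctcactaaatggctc
Olfr629: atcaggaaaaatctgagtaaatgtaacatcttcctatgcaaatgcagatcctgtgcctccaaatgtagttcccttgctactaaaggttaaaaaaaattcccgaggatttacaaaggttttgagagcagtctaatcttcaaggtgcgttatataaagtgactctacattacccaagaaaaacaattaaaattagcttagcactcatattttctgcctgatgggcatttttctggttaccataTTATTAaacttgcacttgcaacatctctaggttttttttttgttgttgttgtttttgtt
Olfr654: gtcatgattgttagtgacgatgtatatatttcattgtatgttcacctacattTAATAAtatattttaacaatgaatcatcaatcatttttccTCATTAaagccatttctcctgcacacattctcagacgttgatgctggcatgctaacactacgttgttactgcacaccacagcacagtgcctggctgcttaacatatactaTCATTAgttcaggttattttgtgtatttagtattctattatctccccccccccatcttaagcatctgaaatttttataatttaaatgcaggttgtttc
Olfr613: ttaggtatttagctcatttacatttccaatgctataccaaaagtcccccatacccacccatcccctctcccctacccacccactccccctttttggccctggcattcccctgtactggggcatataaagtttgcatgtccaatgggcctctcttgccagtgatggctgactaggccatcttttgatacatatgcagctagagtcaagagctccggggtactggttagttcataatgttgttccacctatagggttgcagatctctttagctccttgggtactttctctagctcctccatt
The Olfr69 window is at chr7:103771545-103771844 on the minus strand and holds 0 matches, and the Olfr629 window is at chr7:103741273-103741572 on the minus strand and holds 1. The Olfr654 window is at chr7:104587469-104587768 on the plus strand and holds 3 matches, and the Olfr613 window is at chr7:103550118-103550417 on the plus strand and holds 0. Among windows of the same length TAATNA occurred in 62 of 98 class I genes (63.3%), in 512 of 765 other receptors (66.9%) and in 29.5% of 27025 genes. It occurred in 24 of the 35 windows of members higher in both treatments and in 5 of the 6 windows of members lower in both. TATAAA, the TATA box core, occurred in 38 class I windows (38.8%), in 42.0% of those of other receptors and in 15.7% of those of all genes. A start at an ATG was found for 72.4% of class I genes with a window, 72.8% of other receptors and 7.07% of all genes. The motif shares thus set mostly coding-start windows of receptors against windows of another kind, and are not a comparison of promoters. A match is a run of letters in these windows, not a site shown to be used.

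Values are deposited log2 signals, whose median over all probe sets was between 7.04 and 7.20 on each array, and only differences between arrays are compared, since probe sets of different genes respond unequally. A mean over the arrays below 6.37, the lowest 25% of all genes, was found for 36 of the 114 members, and 78 (68.4%) were above it, as were 667 of the 901 other receptors (74.0%). Of the 114 members 13 were below the array's own lower quartile on all 12 arrays. Member values correlated with r between 0.914 and 0.973 among arrays of a group and between 0.709 and 0.833 among arrays of different fractions. Arrays of single pools stood apart in some measures, the vehicle GFP-positive replicate 2 array among them, and their values are given beside the results they touch.

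The fractions differed in cell makeup. All 12 leukocyte markers were lower in GFP-positive cells in both treatments, with a median difference of -3.84 in odor and -3.86 in vehicle mice, and their summed level (log2) was 11.68 to 12.50 in GFP-positive against 15.66 to 16.06 in GFP-negative cells of odor mice. In vehicle mice it was 11.82 to 11.89 in GFP-positive against 15.70 to 15.91 in GFP-negative cells. Of 10 measured markers of mature olfactory sensory neurons 9 were higher in GFP-positive cells in each treatment, among them Omp, a marker of mature neurons, by 0.33 ± 0.08 in odor and 0.31 ± 0.08 in vehicle mice (log2 ± SE). S100a5 was higher in GFP-positive cells by 0.31 ± 0.10 in odor mice (adjusted p = 0.0166), and its difference in vehicle mice was 0.19 ± 0.10 (adjusted p = 0.123). The part that cell makeup has in the receptor differences was not tested.

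Most class I receptors had higher values in GFP-positive than in GFP-negative cells. In odor mice 50 of the 114 members were called higher, 9 lower and 55 neither (limma, adjusted p under 0.05 over all genes), a balance that turns to 13 higher and 44 lower when receptors are centred on their own median. That is 43.9% and 7.89% of the class I members, against a background over all genes of 33.5% called higher and 18.7% called lower. In vehicle mice 57 members were called higher, 10 lower and 47 neither, which likewise turns to 15 higher and 45 lower under that centring, with 29.9% of all genes called higher and 18.2% lower. The median difference over the 114 members was 0.44 in odor mice, where 94 were above 0, and 0.48 in vehicle mice, where 91 were above 0. Over all genes the medians were 0.13 in odor and 0.06 in vehicle mice. The quartiles of the members were 0.10 and 0.76 in odor mice and 0.17 and 0.99 in vehicle mice. With receptors centred on their own median, the median over the members was -0.27 in odor and -0.35 in vehicle mice.

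Separation of the arrays was closer to the background. GFP-positive and GFP-negative arrays did not overlap, with the GFP-positive side higher, for 47 members in odor mice (41.2%, near the 40.4% of all genes) and for 58 in vehicle mice (50.9%, against 35.3% of all genes). The GFP-positive side was lower without overlap for 11 members in each treatment (9.65%), against 20.4% of all genes in odor mice and 22% in vehicle mice. One array weighs on the odor count, which is 28 higher without the odor GFP-negative replicate 4 array, and cyclic loess scaling gives 30 higher and 10 lower.

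Calls in the 2 treatments were compared member by member. The differences share no arrays, but each gene's spread was estimated from all arrays together, so the calls are not independent. In all, 41 members were higher in both treatments, which is 82% of those higher in odor mice and 71.9% of those higher in vehicle mice. For other receptors these shares were 93.6% and 89.5%, and the shares over all genes were not computed. A further 8 were lower in both, or 88.9% of those lower in odor and 80% of those lower in vehicle mice, with 82.9% and 94.2% for other receptors. No member was called in opposite directions. The 41 members had differences of 0.29 to 2.03 in odor and 0.26 to 2.23 in vehicle mice. The 37 members called in neither treatment, Olfr65, Olfr544, Olfr545, Olfr653 and Olfr691 among them, ran from -0.71 to 0.66 in odor and from -0.81 to 0.92 in vehicle mice. Across the 114 genes the odor and vehicle differences correlated with r = 0.943 and rho = 0.867, and 103 had the same sign, whereas r was 0.966 and rho 0.954 for the other 901 receptors. Genes of a fraction share their arrays, so these are descriptions and not tests.

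**Figure D1:**
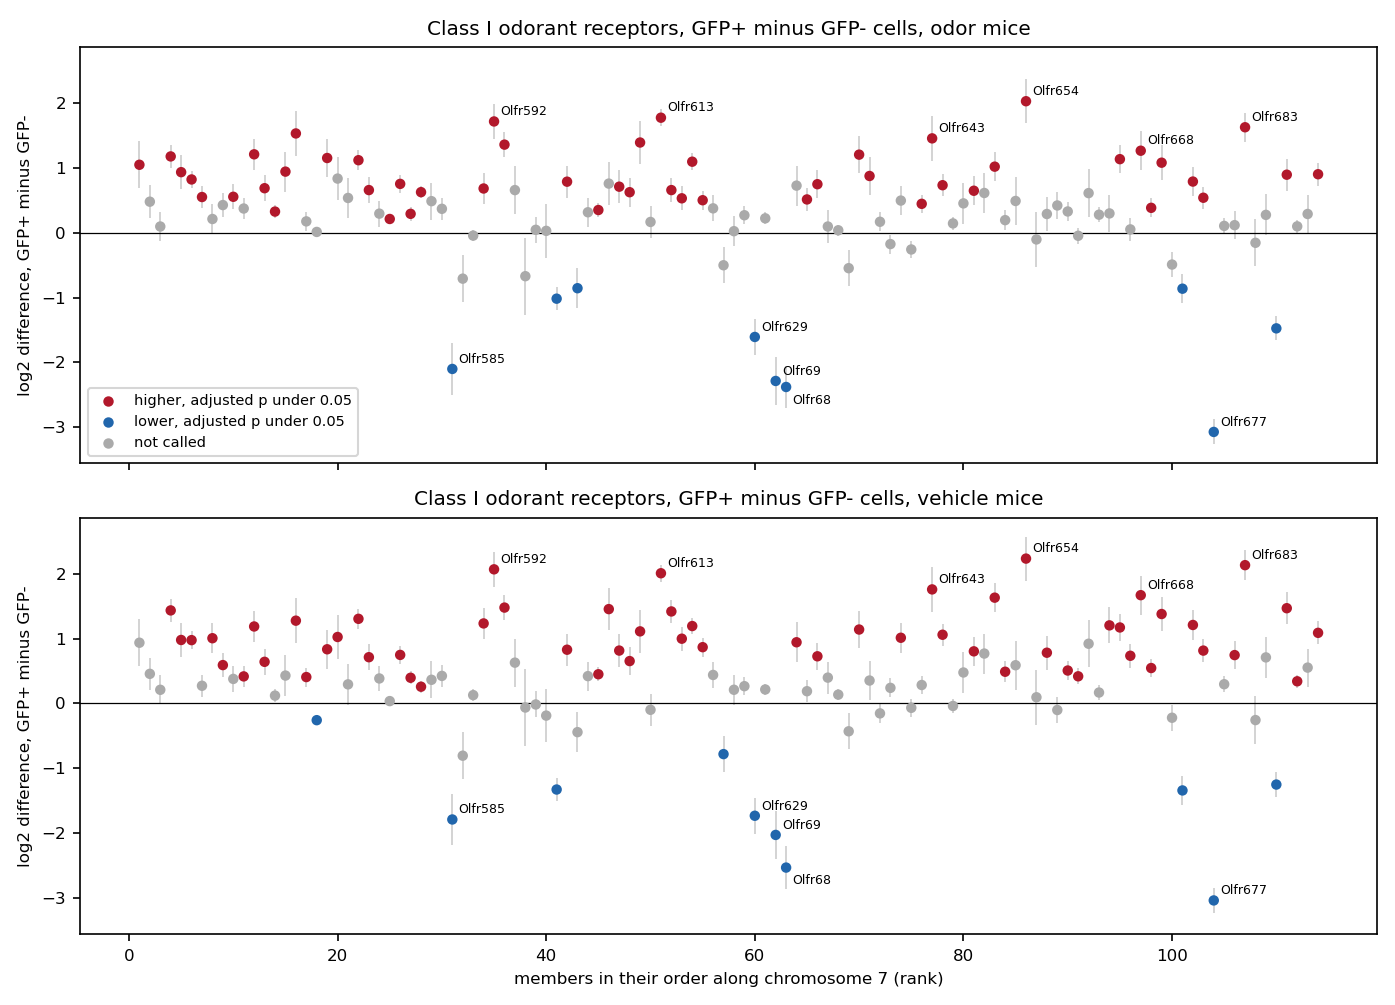
Log2 difference between GFP-positive and GFP-negative cells of each of the 114 class I receptors, in their order along chromosome 7, in odor mice (top) and vehicle mice (bottom); points are fitted differences, bars are the SE of the fit, and colours give the call over all genes. Red points (50 in odor, 57 in vehicle mice, but 13 and 15 once receptors are centred on their own median) run along the whole cluster, and the lowest points are Olfr677, Olfr68, Olfr69, Olfr585 and Olfr629.

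The members with the largest excess in GFP-positive cells are described by array, and where a pair of differences follows, it is for odor and then for vehicle mice. Olfr654 had 9.15, 8.82 and 8.76 in GFP-positive against 7.62, 6.06 and 6.97 in GFP-negative cells of odor mice, and in vehicle mice 8.95, 9.47 and 9.0 in GFP-positive against 7.35, 7.06 and 6.32 in GFP-negative cells. The fractions did not overlap in either treatment. The differences were 2.03 ± 0.34 in odor mice (4.08-fold, adjusted p = 0.000337) and 2.23 ± 0.34 in vehicle mice (4.70-fold, adjusted p = 0.00018).

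Olfr592 had 9.52, 10.44 and 10.05 in GFP-positive against 7.99, 8.34 and 8.53 in GFP-negative cells of odor mice. In vehicle mice its GFP-positive arrays were nearly equal at 10.22, 10.24 and 10.21, against 8.82, 7.79 and 7.85 in GFP-negative cells. Its differences were 1.72 ± 0.27 (3.28-fold, adjusted p = 0.000202) in odor and 2.07 ± 0.27 (4.19-fold, adjusted p = 5.33e-05) in vehicle mice. No Olfr592 value was below an array's lower quartile, so neither fraction was near the low end of the scale.

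Olfr613 had the smallest SE of these members. It had 7.65, 8.24 and 8.0 in GFP-positive against 6.25, 6.18 and 6.14 in GFP-negative cells of odor mice, and in vehicle mice 7.85, 8.09 and 8.05 in GFP-positive against 6.15, 5.99 and 5.83 in GFP-negative cells. Its differences of 1.77 ± 0.13 (adjusted p = 3.91e-07) and 2.01 ± 0.13 (adjusted p = 1.55e-07) amounted to 3.42-fold and 4.02-fold. All GFP-positive values were above all GFP-negative values, but all 6 GFP-negative values were below their array's lower quartile, which limits how well these folds are known.

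Olfr683 had 7.97, 7.49 and 7.61 in GFP-positive against 6.32, 5.97 and 5.90 in GFP-negative cells of odor mice, and in vehicle mice 8.14, 8.28 and 7.67 in GFP-positive against 6.16, 6.19 and 5.35 in GFP-negative cells. Its differences were 1.63 ± 0.23 (3.09-fold, adjusted p = 8.98e-05) and 2.13 ± 0.23 (4.38-fold, adjusted p = 1.08e-05). Again no array of one fraction reached into the other, and 5 of its 6 GFP-negative values were below the array's lower quartile.

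The other 6 of the 10 members with the largest mean excess had smaller differences. Olfr643 differed by 1.45 ± 0.35 in odor and 1.76 ± 0.35 in vehicle mice, and Olfr668 by 1.26 ± 0.30 and 1.67 ± 0.30. Olfr593, the neighbour of Olfr592 in the order of members, differed by 1.36 ± 0.20 and 1.48 ± 0.20. Neighbouring genes of a receptor cluster are often close in sequence, and signal shared between their probe sets was not tested.

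Olfr559 differed by 1.53 ± 0.35 in odor and 1.28 ± 0.35 in vehicle mice, and the vehicle call is lost without the vehicle replicate 2 pool (adjusted p = 0.0556). Olfr651 differed by 1.02 ± 0.23 and 1.63 ± 0.23, and Olfr547 by 1.18 ± 0.18 and 1.43 ± 0.18. All 6 GFP-negative values of Olfr559 and of Olfr547 were below their array's lower quartile, which limits how well these differences are known. So were 5 of the 6 of Olfr651, 4 of Olfr593, 2 of Olfr643 and 1 of Olfr668. When receptors are centred on their own median, Olfr668 and Olfr651 are no longer called in odor mice (adjusted p = 0.0651 and 0.351), nor Olfr559 in vehicle mice (adjusted p = 0.16). The 10 members are thus those highest relative to all genes, and 3 of them lose a call when set against other receptors.

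A set of 8 members was lower in GFP-positive cells in both treatments, and Olfr677 led them. It had 5.52, 5.70 and 5.32 in GFP-positive against 8.93, 8.16 and 8.67 in GFP-negative cells of odor mice, and in vehicle mice 5.19, 5.56 and 5.17 in GFP-positive against 8.67, 8.15 and 8.23 in GFP-negative cells. The differences were -3.07 ± 0.19 in odor mice (8.41-fold lower, adjusted p = 8.41e-08) and -3.04 ± 0.19 in vehicle mice (8.22-fold lower, adjusted p = 1.15e-07). Every GFP-positive value was below its array's lower quartile, which limits how well the size of the fall is known.

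Olfr68 and Olfr69 are next to each other and close to the beta-globin genes. Olfr68 had 5.10, 6.5 and 5.59 in GFP-positive against 8.39, 7.79 and 8.15 in GFP-negative cells of odor mice, and in vehicle mice 5.88, 5.50 and 6.09 in GFP-positive against 8.41, 8.85 and 7.80 in GFP-negative cells. It differed by -2.38 ± 0.33 (5.20-fold lower, adjusted p = 8.5e-05) in odor and -2.53 ± 0.33 (5.78-fold lower, adjusted p = 5.62e-05) in vehicle mice. The fractions did not overlap, and 5 of the 6 GFP-positive values were below the lower quartile of the array.

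Olfr69 had 4.09, 4.16 and 4.47 in GFP-positive against 6.83, 5.61 and 7.15 in GFP-negative cells of odor mice, and in vehicle mice 4.44, 4.89 and 4.80 in GFP-positive against 6.56, 7.46 and 6.19 in GFP-negative cells. It differed by -2.29 ± 0.36 (adjusted p = 0.000236) and -2.03 ± 0.36 (adjusted p = 0.000577), or 4.88-fold and 4.08-fold lower. The fractions did not overlap in either treatment. All 6 GFP-positive and 2 of the 6 GFP-negative values were below their array's lower quartile, so the folds are uncertain.

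Olfr585 had 4.82, 5.01 and 4.86 in GFP-positive against 8.11, 5.85 and 7.02 in GFP-negative cells of odor mice, and in vehicle mice 5.09, 5.17 and 5.31 in GFP-positive against 7.37, 6.81 and 6.76 in GFP-negative cells. Olfr629 had 5.18, 4.97 and 5.18 in GFP-positive against 7.13, 6.02 and 7.01 in GFP-negative cells of odor mice, and in vehicle mice 4.91, 4.84 and 5.22 in GFP-positive against 7.10, 6.17 and 6.91 in GFP-negative cells. In both genes all 6 GFP-positive values were below their array's lower quartile, which limits how well the size of the differences is known. Olfr585 differed by -2.10 ± 0.40 in odor and -1.79 ± 0.40 in vehicle mice, and Olfr629 by -1.61 ± 0.28 and -1.73 ± 0.28.

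Olfr686, Olfr600 and Olfr672 complete the 8. Olfr686 differed by -1.48 ± 0.19 in odor and -1.25 ± 0.19 in vehicle mice, and Olfr600 by -1.02 ± 0.18 and -1.33 ± 0.18. For Olfr600 all 6 GFP-positive and 5 of the 6 GFP-negative values were below their array's lower quartile, so the size of its differences is uncertain. Olfr672 had 9.71, 9.86 and 9.44 in GFP-positive against 10.86, 10.20 and 10.54 in GFP-negative cells of odor mice, and differed by -0.86 ± 0.22 in odor and -1.34 ± 0.22 in vehicle mice. No value of Olfr686 or Olfr672 was below an array's lower quartile, so for these 2 both fractions had signal well up the scale. Their calls and those of the other 6 were kept in every scaling, block and left-out array tried. The low-value filter removed Olfr69, Olfr585, Olfr629 and Olfr600 from the test, so it did not check their calls.

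**Figure D2:**
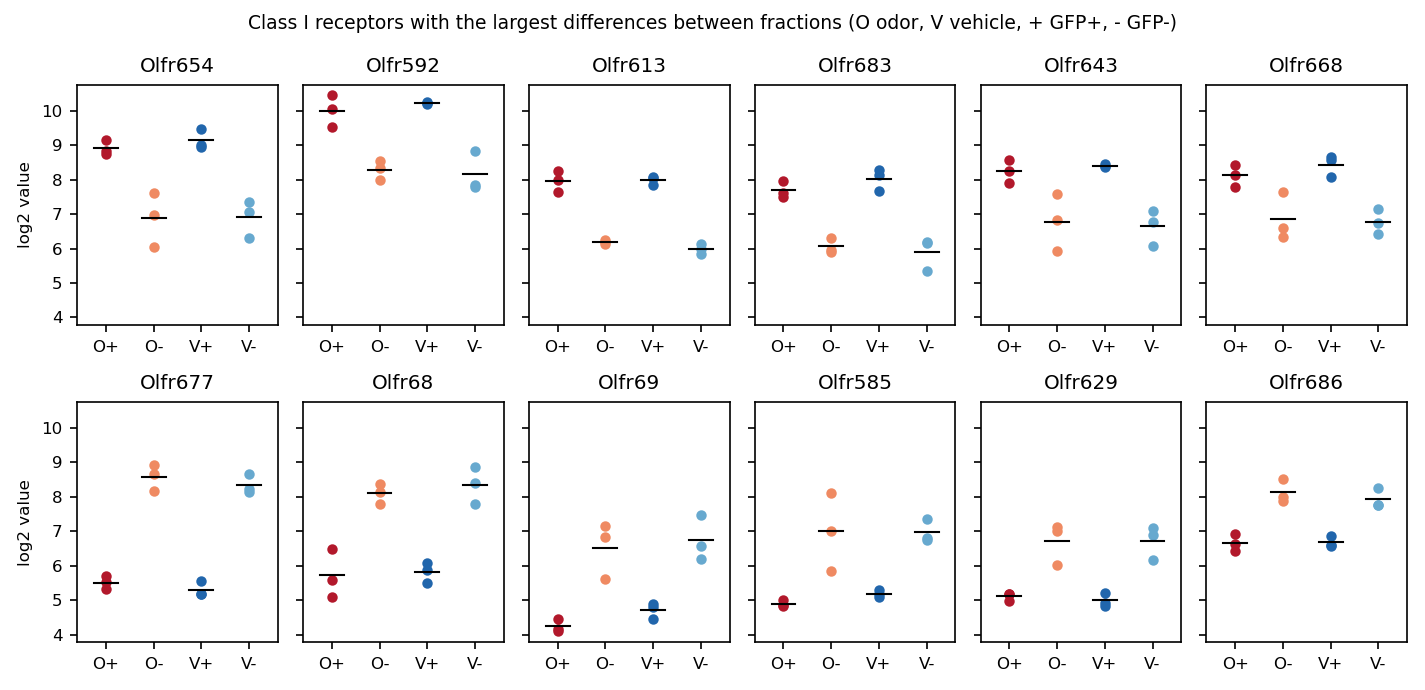
Deposited log2 values on each array for 12 class I receptors, in the order odor GFP-positive (O+), odor GFP-negative (O-), vehicle GFP-positive (V+) and vehicle GFP-negative (V-); points are arrays and bars are group means. The upper row shows the 6 members with the largest mean excess in GFP-positive cells, with Olfr654 at 8.76 to 9.15 against 6.06 to 7.62 in odor mice, and the lower row the 6 with the largest mean deficit, with Olfr677 at 5.32 to 5.70 against 8.16 to 8.93.

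A further 3 members were called lower in a single treatment. Olfr603 differed by -0.86 ± 0.31 in odor mice (adjusted p = 0.0334) and by -0.44 ± 0.31 in vehicle mice (adjusted p = 0.272). Olfr622 differed by -0.50 ± 0.27 in odor mice (adjusted p = 0.142) and by -0.78 ± 0.27 in vehicle mice (adjusted p = 0.0319, or 0.0558 with the pool as a block), and the third was Olfr564. No member passed the test of a difference between the treatments, given further on.

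Several members have a known ligand or setting. Olfr544, a receptor for azelaic acid, had 7.79, 7.19 and 7.74 in GFP-positive against 7.56, 6.62 and 7.11 in GFP-negative cells of odor mice, and in vehicle mice 7.20, 7.82 and 7.50 in GFP-positive against 6.72, 7.41 and 7.03 in GFP-negative cells. Its fractions overlapped in both treatments, and the differences of 0.48 ± 0.25 and 0.46 ± 0.25 did not pass the unpaired test (adjusted p = 0.127 and 0.162). Within pools it was higher in GFP-positive cells in 6 of 6, by 0.24, 0.57 and 0.63 in odor and 0.48, 0.41 and 0.48 in vehicle mice, and with the pool as a block it was called in both treatments (adjusted p = 0.00202 and 0.00267). Olfr558, the mouse counterpart of human OR51E1 and a receptor for isovaleric acid, had 6.41, 6.20 and 6.4 in GFP-positive against 6.12, 5.96 and 5.96 in GFP-negative cells of odor mice. It was higher by 0.33 ± 0.10 there (adjusted p = 0.0163), while in vehicle mice its difference was 0.12 ± 0.10 (adjusted p = 0.37). All 6 of its GFP-negative and 3 of its 6 GFP-positive values were below their array's lower quartile.

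Olfr691, which responds to medium-chain fatty acids, differed by 0.29 ± 0.29 in odor and 0.55 ± 0.29 in vehicle mice, neither of them called, though with the pool as a block the vehicle difference was (adjusted p = 0.0186). Olfr690, which lies beside it, was not called in odor mice (0.10 ± 0.10) and was higher in vehicle mice (0.34 ± 0.10, adjusted p = 0.0108). Olfr692, also found in some vomeronasal neurons, had 7.85, 7.89 and 7.50 in GFP-positive against 7.08, 6.87 and 6.58 in GFP-negative cells of odor mice, without overlap. It was higher by 0.90 ± 0.18 in odor mice (adjusted p = 0.00114) and 1.09 ± 0.18 in vehicle mice (adjusted p = 0.000326).

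Olfr543, Olfr544 and Olfr545 stand first in the order of members and did not share calls in the unpaired test. With the pool as a block, Olfr543 and Olfr544 were called higher in both treatments and Olfr545 in neither. Olfr543 had 9.13, 8.29 and 8.26 in GFP-positive against 8.54, 7.18 and 6.82 in GFP-negative cells of odor mice, and differed by 1.05 ± 0.36 in odor (adjusted p = 0.0293) and 0.94 ± 0.36 in vehicle mice (adjusted p = 0.0505, or 0.00118 with the pool as a block). Olfr545 differed by 0.10 ± 0.23 and 0.21 ± 0.23 and was not called. Of the other members listed by name, Olfr570 was higher in both treatments (1.12 ± 0.15 and 1.30 ± 0.15), as was Olfr609 (0.62 ± 0.22 and 0.65 ± 0.22), while Olfr653 was called in neither (0.49 ± 0.37 and 0.59 ± 0.37). Olfr33 was higher in odor mice (0.94 ± 0.31, adjusted p = 0.0227) and not called in vehicle mice (0.43 ± 0.31, adjusted p = 0.294).

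Position within the cluster was read from the order of genes in the RefSeq table. In 6 consecutive blocks of 19 members the median difference in odor mice was 0.55, 0.54, 0.50, 0.17, 0.45 and 0.28, and in vehicle mice 0.59, 0.40, 0.65, 0.21, 0.77 and 0.71. The lowest block in both treatments was the fourth, Olfr623 to Olfr642, which also holds the beta-globin genes. It had 5 members higher and 3 lower in odor mice, and 4 higher and 3 lower in vehicle mice. The first block, Olfr543 to Olfr566, had 12 higher and 0 lower in odor mice and 11 higher and 1 lower in vehicle mice. Blocks were compared as descriptions only.

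The 3 members lower in the fourth block, Olfr629, Olfr69 and Olfr68, stand within 4 places of one another, at places 60, 62 and 63 of 114. Next comes Olfr67 at place 64, then the beta-globin genes Hbb-bt, Hbb-bs, Hbb-bh2, Hbb-bh1 and Hbb-y, and then Olfr66, Olfr64 and Olfr65. The receptors on either side of the globin genes did not follow Olfr68 and Olfr69. Olfr67 differed by 0.73 ± 0.31 in odor mice (adjusted p = 0.0665) and was higher in vehicle mice by 0.94 ± 0.31 (adjusted p = 0.0233). Olfr64, on the far side, was higher in both treatments by 0.75 ± 0.21 and 0.73 ± 0.21 (adjusted p = 0.0104 and 0.0125).

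Olfr64 had 6.34, 6.30 and 5.73 in GFP-positive against 5.89, 5.33 and 4.91 in GFP-negative cells of odor mice, and in vehicle mice 5.93, 6.04 and 6.20 in GFP-positive against 5.36, 5.37 and 5.25 in GFP-negative cells, where the fractions did not overlap. All 6 of its GFP-negative and 5 of its 6 GFP-positive values were below their array's lower quartile. Olfr65 differed by 0.10 ± 0.25 and 0.40 ± 0.25 and was not called. Olfr66 was higher in odor mice by 0.51 ± 0.17 (adjusted p = 0.0239) and not called in vehicle mice (0.19 ± 0.17), but all 12 of its values were below the arrays' lower quartiles. Olfr68 and Olfr69 on the one hand and Olfr64 on the other were called in opposite directions in both treatments. Olfr67 was called higher in vehicle mice alone, where its pools differed by 2.02, -0.03 and 0.84. Each of these genes has values below the lower quartile of the array.

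The class I differences were set against those of the other 901 odorant receptors. In odor mice 43.9% of class I members were called higher and 7.89% lower, against 58.7% and 13% of other receptors. In vehicle mice 50% of class I members were called higher and 8.77% lower, against 61.4% and 11.4% of other receptors. The median difference was 0.44 for class I and 0.72 for other receptors in odor mice, and 0.48 for class I and 0.82 for other receptors in vehicle mice. The medians of the fitted SE were equal at 0.221. Centred on the median of all receptors, 38.6% of class I members were lower and 11.4% higher in odor mice, with 31.1% and 30.2% of other receptors.

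In vehicle mice, under the same centring, 39.5% of class I members were lower and 13.2% higher, with 34.6% and 29.2% of other receptors. The class I differences were also less spread: their SD over genes was 0.817 in odor and 0.883 in vehicle mice, against 1.25 and 1.26 for other receptors. A difference above 2 in both treatments was reached by 1 class I member, Olfr654 (0.877%), and by 86 other receptors (9.54%). These shares describe the genes and are not a test between the receptor classes.

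The gap to the other receptors was found among genes above a cut on mean signal. The cut uses the same arrays as the differences, and a larger excess in GFP-positive cells raises the mean. The split therefore cannot show whether the gap depends on signal level. Among receptors above the lowest 25% of all genes the median difference was 0.49 for 78 class I members and 0.91 for 667 others in odor mice, and 0.64 and 1.04 in vehicle mice. Among those below it the 36 class I members had medians of 0.34 in odor and 0.27 in vehicle mice, against 0.26 and 0.21 for 234 other receptors.

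**Figure D3:**
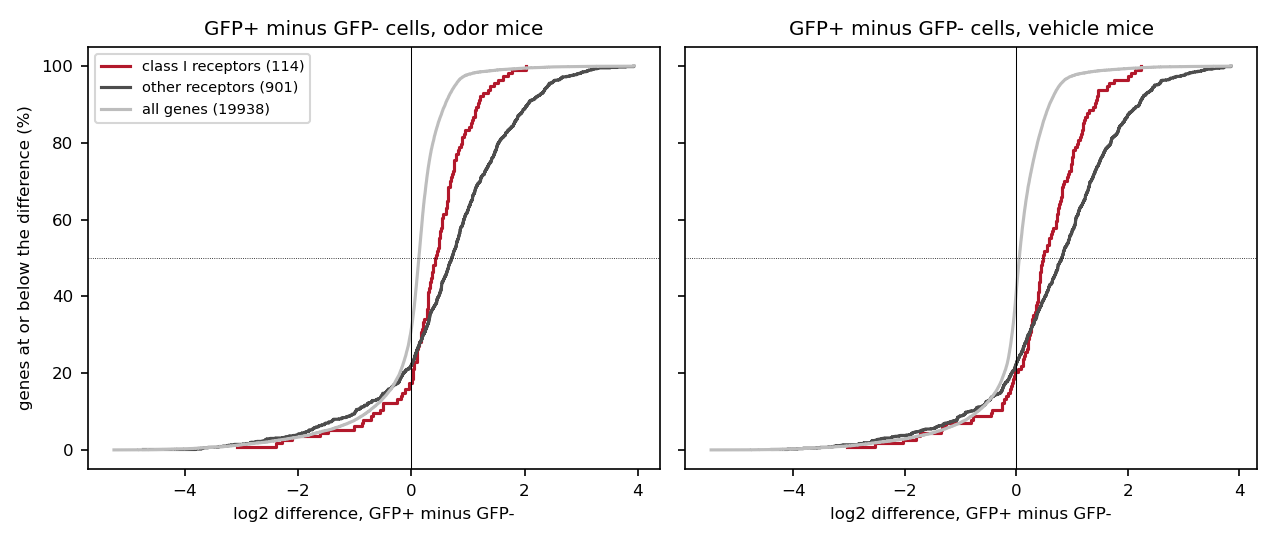
Share of genes (%) at or below each log2 difference between GFP-positive and GFP-negative cells, in odor mice (left) and vehicle mice (right), of the values as deposited, for 114 class I receptors, 901 other receptors and all 19938 genes; the dotted line marks 50%. The class I curve lies between the other 2 at its middle, with medians of 0.44 and 0.48 against 0.72 and 0.82 for other receptors and 0.13 and 0.06 for all genes, and it ends near 2 on the right, whereas that of other receptors runs to 3.93 and 3.86.

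The same comparison was made array by array, as the class I median less the median of the other receptors. It was -0.49, -0.53 and -0.52 in GFP-positive against -0.24, -0.14 and -0.15 in GFP-negative cells of odor mice, and in vehicle mice -0.52, -0.27 and -0.57 in GFP-positive against -0.24, 0.04 and -0.07 in GFP-negative cells. GFP-positive and GFP-negative arrays did not overlap in either treatment, and the GFP-positive array was the lower one in 6 of 6 pools, by -0.26 to -0.39 in odor and -0.28 to -0.50 in vehicle pools. The mean was -0.51 ± 0.02 on GFP-positive arrays and -0.18 ± 0.05 on GFP-negative arrays of odor mice, and -0.46 ± 0.16 and -0.09 ± 0.14 on those of vehicle mice (SD, n = 3 each).

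The class I median itself was 7.30, 7.04 and 7.14 in GFP-positive against 7.02, 6.63 and 6.60 in GFP-negative cells of odor mice, and in vehicle mice 7.18, 7.50 and 7.21 in GFP-positive against 6.77, 7.04 and 6.55 in GFP-negative cells. The class I median was thus higher on the GFP-positive array of every pool, by less than the median of other receptors. The vehicle replicate 2 pool had the highest class I median relative to other receptors in each fraction, and its own class I median was the highest among GFP-positive arrays, while among GFP-negative arrays it was level with odor replicate 2. Its GFP-positive array held the highest of 6 GFP-positive values for 42 of 114 class I members (36.8%) and for 16.2% of other receptors. Among the GFP-negative arrays the odor replicate 2 array led, with the highest of 6 values for 49 class I members (43.0%) and 45.4% of other receptors, and the vehicle replicate 2 array had 26 (22.8%) and 16.2%.

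**Figure D4:**
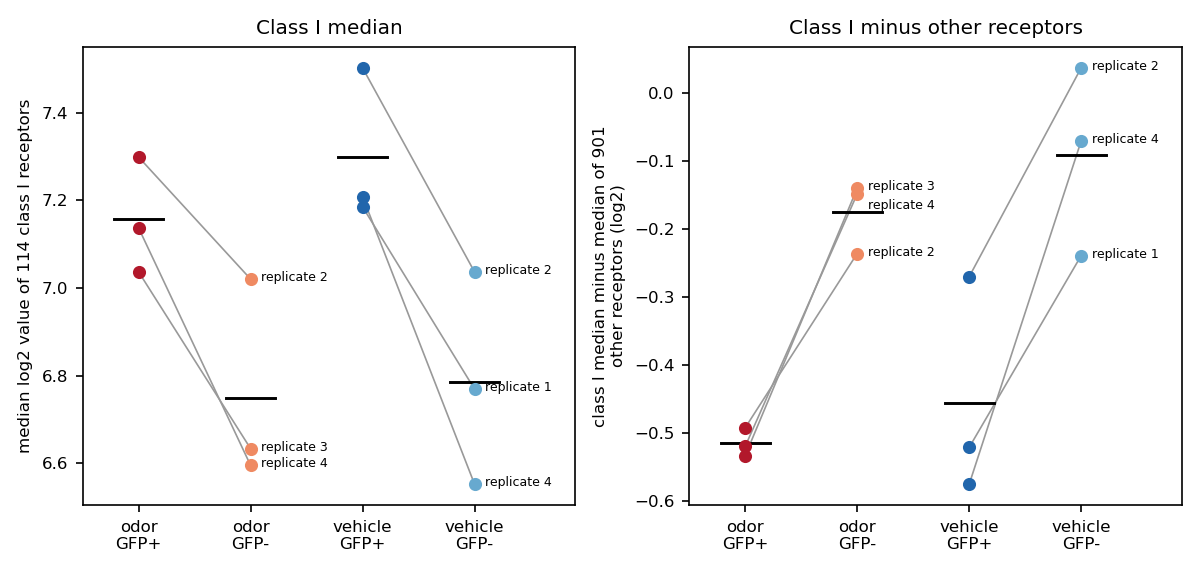
Median log2 value of the 114 class I receptors (left) and that median minus the median of 901 other receptors (right) on each array; points are arrays, lines join the fractions of a pool and bars are group means. On the left the GFP-positive array is above its GFP-negative partner in all 6 pools, and on the right it is below it in all 6, with odor group means of -0.51 and -0.18.

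Zone markers were compared between the same fractions. Ncam2, a marker of ventral zone neurons, was higher in GFP-positive cells by 0.81 ± 0.12 in odor and 0.86 ± 0.12 in vehicle mice (adjusted p = 0.000174 and 0.000122). Nqo1, a marker of dorsal zone neurons, was higher by 0.29 ± 0.11 in odor mice (adjusted p = 0.0477) and had a difference of 0.21 ± 0.11 in vehicle mice (adjusted p = 0.153). Of the 4 dorsal zone genes listed, 3 were higher in odor and 2 in vehicle mice, with median differences of 0.33 and 0.24. Both ventral zone genes, Ncam2 and Nrp2, were higher in each treatment, with medians of 0.79 and 0.76.

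The Nqo1 value less the Ncam2 value, read only between arrays, was 0.52, 0.56 and 0.40 in GFP-positive against 1.03, 0.95 and 1.06 in GFP-negative cells of odor mice, and in vehicle mice 0.37, 0.68 and 0.42 in GFP-positive against 0.86, 1.36 and 1.20 in GFP-negative cells. It was lower in the GFP-positive array of every pool and, like the class I median relative to other receptors, highest in the vehicle replicate 2 pool in each fraction. Within the odor groups the 2 measures did not rank the arrays alike. Among odor GFP-positive arrays replicate 3 was lowest in the class I measure (-0.53) and highest in the marker measure (0.56). Among odor GFP-negative arrays replicate 3 was highest in the class I measure (-0.14) and lowest in the marker measure (0.95). The part of the zone makeup of the fractions, or of the vehicle replicate 2 pool, in the class I differences was not tested. The summed level of the 4 dorsal genes (log2) was 13.14 to 13.21 in GFP-positive against 12.72 to 13.10 in GFP-negative cells of odor mice, and in vehicle mice 13.06 to 13.34 in GFP-positive against 12.80 to 13.00 in GFP-negative cells.

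Genes that act in receptor choice, trafficking and signalling were counted from a list of 21. Of these, Rtp1, Rtp2, Gnal, Adcy3, Cnga2, Cnga4, Cngb1 and Ano2 are also among the mature neuron markers counted above, so the lists are not separate. In odor mice 18 were higher in GFP-positive cells, 1 lower and 2 not called, and in vehicle mice 18 were higher, 0 lower and 3 not called, with medians of 0.57 and 0.46. Over all genes 33.5% and 29.9% were called higher. Emx2, a homeodomain factor, was higher by 0.81 in odor and 0.77 in vehicle mice, and Reep1, an accessory protein of receptor trafficking, by 0.78 and 0.62. Bcl11b, a factor that biases the choice between class I and class II receptors, was higher by 0.52 ± 0.09 in odor and 0.45 ± 0.09 in vehicle mice (adjusted p = 0.000411 and 0.00124). The gene lower in odor mice was Eif2ak3, a kinase of the unfolded protein response, at -0.24.

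Likeness to the class I pattern was measured as Pearson's r with the class I array medians over 12 arrays, among genes that are not receptors. The 5 most alike were Fermt2 (r = 0.968), Ncbp2 (0.961), Nipal2 (0.961), Tnpo2 (0.96) and Eif2b4 (0.958). Arrays of a group share a treatment and a fraction, and the fractions of a pool share their mice, so these are descriptions.

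The odor comparison asks which receptors differed after exposure to the citrus accord, and no class I receptor passed the test. In GFP-positive cells 0 of 114 members were called in odor against vehicle mice (limma, adjusted p under 0.05), with 0.00502% of all genes called higher and 0% lower. The smallest adjusted p over the members was 1.00, and 7 members (6.14%) had an unadjusted p under 0.05, as had 2.77% of other receptors and 1.30% of all genes. Arrays of odor and vehicle mice did not overlap for 12 members, 3 higher in odor mice (4.49% of all genes) and 9 lower (3.45% of all genes).

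The differences of the members leaned below 0. The median was -0.12 for class I and -0.05 for other receptors, and 84 of 114 class I members (73.7%) and 549 of 901 others (60.9%) were below 0. Much of this lean came with 1 array: without the vehicle GFP-positive replicate 2 array the class I median was -0.03, with 69 members (60.5%) below 0, against -0.04 and 59.7% for other receptors. Without any other array of these groups the class I median was between -0.18 and -0.11.

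The members with the smallest p give the size of what was measured. Olfr564 had 4.91, 4.99 and 4.95 in odor mice against 4.65, 4.73 and 4.69 in vehicle mice, a difference of 0.26 ± 0.08 (unadjusted p = 0.00489, adjusted p = 1.00). Its arrays did not overlap, but all 12 of its values were below the arrays' lower quartiles. Olfr577 had 6.19, 6.4 and 6.27 in odor against 6.05, 6.04 and 5.96 in vehicle mice, a difference of 0.27 ± 0.09 (unadjusted p = 0.0106). Of its 6 GFP-positive values 5 were below their array's lower quartile.

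Olfr576 had 6.07, 5.95 and 5.83 in odor against 6.23, 6.34 and 6.13 in vehicle mice, a difference of -0.28 ± 0.10 (unadjusted p = 0.0175). Of these 6 values 5 were below their array's lower quartile. Olfr652 had 9.34, 9.20 and 9.56 in odor against 9.48, 9.99 and 9.86 in vehicle mice, a difference of -0.41 ± 0.16, with an overlap of 1 odor array. Olfr616 had 6.56, 6.06 and 6.61 in odor against 6.51, 7.03 and 7.10 in vehicle mice, a difference of -0.47 ± 0.18, the lowest of any member, though its groups overlapped. The acid receptors Olfr544, Olfr558 and Olfr691 had odor differences of 0.07 ± 0.25, 0.10 ± 0.10 and -0.06 ± 0.29 in these cells.

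In GFP-negative cells 0 members were called, with 0% of all genes called in either direction. Of the members 4 had an unadjusted p under 0.05 (3.51%), against 5.99% of other receptors and 6.53% of all genes, and the smallest adjusted p was 0.732. The median was -0.01 for class I, with 61 members below 0, and 0.04 for other receptors. Arrays did not overlap for 1 member higher in odor mice (2.79% of all genes) and 3 lower (4.65% of all genes). The class I median ranged from -0.15 to 0.07 with single arrays left out, so its sign rests on the arrays used.

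Olfr615 had 6.49, 6.25 and 6.59 in GFP-negative cells of odor mice against 5.82, 6.35 and 5.60 in those of vehicle mice, a difference of 0.52 ± 0.18 (unadjusted p = 0.0145, adjusted p = 0.732). Olfr554 had 6.08, 5.82 and 5.82 in odor against 6.44, 6.39 and 6.36 in vehicle mice, a difference of -0.49 ± 0.20. Olfr551 had 5.81, 5.88 and 5.61 in odor against 6.08, 6.54 and 6.02 in vehicle mice, a difference of -0.45 ± 0.17. The last 2 genes showed no overlap of arrays, and Olfr615 did. Of the 6 GFP-negative values of each gene, 4 were below their array's lower quartile for Olfr615, 4 for Olfr554 and 5 for Olfr551. Olfr665 had 7.46, 7.55 and 7.42 in odor against 7.16, 7.27 and 6.14 in vehicle mice, without overlap, and differed by 0.62 ± 0.28, a value that rests in part on the low vehicle replicate 4 array. Olfr645, the last of the 5 members with the smallest p, differed by -0.22 ± 0.10.

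**Figure D5:**
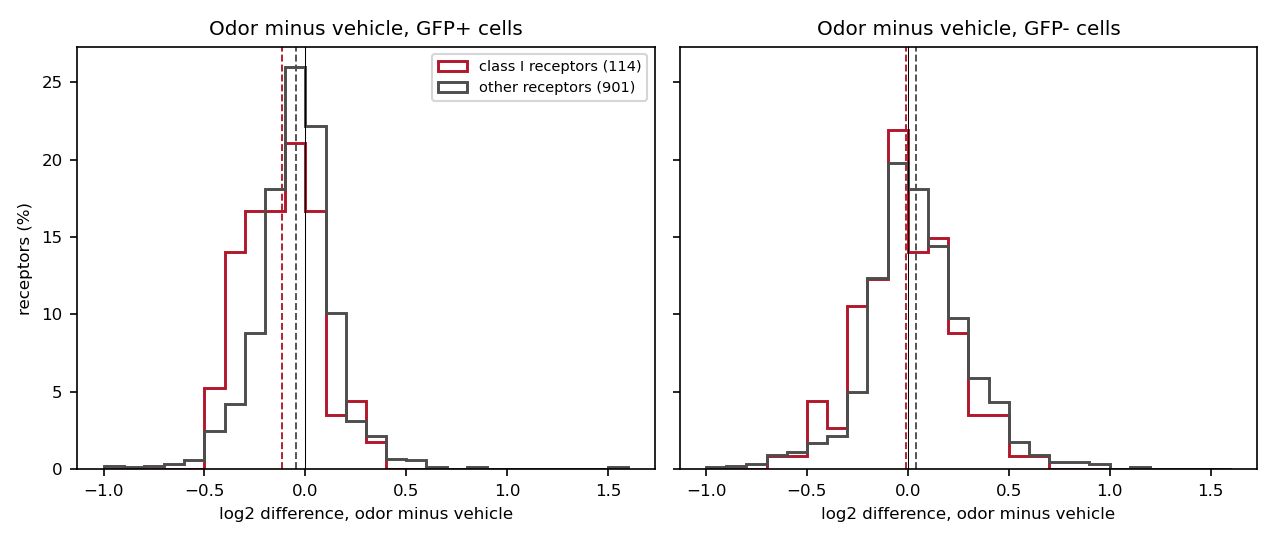
Share of receptors (%) by log2 difference between odor and vehicle mice in GFP-positive cells (left) and GFP-negative cells (right), for 114 class I and 901 other receptors; dashed lines are the medians of each list. No class I receptor was called in either fraction, and the class I medians are -0.12 on the left, which is -0.03 without the vehicle GFP-positive replicate 2 array, and -0.01 on the right.

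The interaction asks whether the difference between fractions differed between odor and vehicle mice. It was called for 0 of 114 members, with 0.00502% of all genes higher and 0% lower, and the smallest adjusted p of a member was 0.971. Of the members 7 had an unadjusted p under 0.05 (6.14%), as had 5.11% of other receptors and 4.23% of all genes. The median was -0.11 for class I, with 75 of 114 members below 0, and -0.08 for other receptors. The class I median relative to other receptors differed between fractions by -0.34 in odor and -0.36 in vehicle mice, an interaction of 0.02.

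The 5 members with the smallest p differed in which treatment had the larger sort difference. Olfr615 had a difference between fractions of 0.66 in odor and 1.42 in vehicle mice, an interaction of -0.76 ± 0.26 (unadjusted p = 0.0121). Olfr667 had 0.05 in odor and 0.73 in vehicle mice, an interaction of -0.68 ± 0.26 (unadjusted p = 0.0209), and Olfr659 had -0.05 and 0.42, an interaction of -0.47 ± 0.17 (unadjusted p = 0.018). Olfr577 had the larger difference in odor mice, with 0.63 in odor and 0.26 in vehicle mice, an interaction of 0.37 ± 0.13 (unadjusted p = 0.013), and Olfr564 had an interaction of 0.27 ± 0.11 (unadjusted p = 0.0278). All 5 had an adjusted p of 0.971. Every GFP-negative value of Olfr659, Olfr577 and Olfr564 was below its array's lower quartile, as were 4 of the 6 of Olfr615, while no value of Olfr667 was. The calls of the sort that were made in 1 treatment alone, 9 higher in odor and 16 higher in vehicle mice, are therefore not shown to differ between the treatments.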

How the data were processed

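The data are 12 Mouse Gene 1.0 ST arrays of sorted cells. Per the submitters' processing notes, the authors ran Affymetrix Expression Console, and deposited 1 log2 value per probe set and array. Version, summarization and background correction were not given in the sources used here. That the scale is log2 follows from the range of the values (2.42 to 14.1), which were used as deposited. Of 35556 probe sets, 21789 had 1 gene symbol in the annotation used, 1621 had several and 12146 had none. Per gene, the probe set with the highest mean was kept (19938 genes). Receptor paralogues may share probes. Precision is limited by how few arrays there are.

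The 4 groups were fitted in 1 model without a block in limma 3.58.1 (R 4.3.3), two-sided, with p-values adjusted by Benjamini-Hochberg over all genes and called under 0.05. Differences carry the SE of the fit and means the SD of 3 arrays. The script was tested on simulated data. The fractions of a pool come from the same mice: their deviations from group means correlated with r of 0.0732 to 0.252, so pool as a block is the paired alternative. Whether a number shared by odor and vehicle samples marks a shared day is not given in the labels. Other alternatives changed the scaling, the low-value filter, the probe set rule, the weights, the prior, the groups fitted and each array in turn.

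Named members are the 10 highest and 8 lowest of those called alike in both treatments, the 5 with the smallest p in each other comparison, and members fixed by name. Olfr622, Olfr603 and blocks of order were chosen after their values were seen. Protein identity of members was not analysed here. Members and lists were chosen with earlier results of these data known. Figures used matplotlib 3.10.9, numpy 2.4.6 and pandas 2.3.3 under Python 3.11.15.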

Additional observations from a re-analysis of the deposited data

How the results depend on the processing

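Class I receptors called higher in GFP-positive cells of odor mice (50) became 30 with cyclic loess and 13 once receptors were centred on their own median, where those lower (9) became 44. In vehicle mice the same centring gave 15 higher (57) and 45 lower (10). Dropping the lowest 25% of genes left 5 lower in each treatment, since lowly measured members leave the test, and moved the interaction of the class I median relative to other receptors to -0.11, against 0.02.

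With single arrays left out the count higher ranged from 28 to 59 in odor and from 41 to 58 in vehicle mice, and the count lower from 8 to 10 in each. It was lowest in odor mice without the GFP-negative replicate 4 array. Class I medians then ranged from 0.32 to 0.55 and from 0.39 to 0.60 between fractions, from -0.18 to -0.03 and from -0.15 to 0.07 between treatments in GFP-positive and GFP-negative cells, and from -0.21 to 0.05 for the interaction. Relative to other receptors the difference between fractions ranged from -0.37 to -0.32 in odor and from -0.46 to -0.30 in vehicle mice. Counts between treatments and of the interaction stayed at 0 in all of these.

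With the pool of 3 mice as a replicate block, 58 members were higher and 10 lower in odor mice, and 65 higher and 9 lower in vehicle mice, and 0 had a called interaction. With the title number or the sample code number as a block, numbers whose deviations correlated between -0.17 and 0.28 and between -0.21 and 0.44, 0 members were called between treatments. Leaving out both arrays of the vehicle replicate 2 pool, which was chosen after seeing the data, gave 44 higher and 9 lower in vehicle mice and a class I median of -0.03 between treatments in GFP-positive cells. Across the alternatives that keep all arrays, 29 counts above 0 stayed within 1.5 times their value and 7 did not, and 60 counts of 0 stayed at 0. Some of these could move little, since only 1 member has 2 probe sets and the pool block leaves the differences between fractions unchanged. Of the medians counted under these alternatives, 48 moved by less than the spread between arrays and 1 did not. That count leaves out the centring of receptors on their own median, where the class I medians between fractions changed sign. They were then -0.27 in odor and -0.35 in vehicle mice. The median SE of a member, 0.221, against 0.0968 for all genes, limits what can be called.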
